A study of Rattus norvegicus with 3 samples.

Results

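Markers of macrophages, 10 genes in all, were followed through the enamel organ, the epithelial tissue that builds tooth enamel, across 3 stages of its development in the continuously growing rat incisor. The members are a list of names (Ptprc, Csf1r, Cd68, Cd14, Lyz2, Mrc1, Cd163, C1qa, C1qb and C1qc) to which no threshold on their values was applied, although the list was drawn up with earlier results of these data known, and 10 of 10 were present among the 16516 genes of the authors' deposited table. The stages were cells of the cervical loop, where the dental epithelium renews itself, secretory ameloblasts, which lay down enamel matrix, and maturation ameloblasts, which remove it while mineral is added. All 3 populations were dissected from Wistar Hannover rats, 5 in number per the labels, and none was described as treated or genetically altered. The labels describe dissection of the tissue and name no sorting of cells, so non-epithelial cells lying in or beside the epithelium could be part of each population.

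Macrophages are phagocytes of the innate immune system that live in nearly every tissue, where they take up dying cells, debris and microbes. They need signalling through the receptor for colony-stimulating factor 1, carry receptors for bacterial products and glycoproteins, digest what they engulf in lysosomes, and are a main source of C1q, the recognition molecule of the classical complement pathway. Most of these genes are shared to some degree with other cells: Ptprc with all leukocytes, Cd14 and Lyz2 with monocytes and neutrophils, Cd68 with osteoclasts and other lysosome-rich cells.

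Each stage is represented by 1 deposited mean per gene, so no standard deviation or overlap between libraries can be given, and replicate error enters only through the authors' p-values. The deposited totals equalled about 4 cervical loop, 4 secretory and 5 maturation libraries, whereas the labels, with 5 rats and only 1 cervical loop library left out, would give 5 secretory libraries; this difference was not resolved. The false discovery rate (FDR) was computed from the deposited p-values by the Benjamini-Hochberg procedure across the 16516 genes, and a gene was called at an FDR of at most 0.05. Folds are ratios of the authors' means, whose scale is not stated, so means can be compared between stages of a gene but not between genes. The middle gene of the whole table had a log2 ratio of -0.14 from cervical loop to secretory, 0.00 from secretory to maturation and -0.12 from cervical loop to maturation. The labels fitted the stage markers: Amelx, which encodes amelogenin, stood at 1152, 37121 and 217, and Odam, a gene of the maturation stage, at 29.3, 127 and 3159 in cervical loop, secretory and maturation samples. In such bulk samples a larger number of macrophages and more RNA per macrophage cannot be told apart.

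Promoter windows of 4 members are shown because C1qa, C1qb and Cd68 were higher in maturation, while Mrc1 did not pass in any pair of stages. Each window runs from 250 bases before to 50 bases after the annotated start in RefSeq (build GRCr8), is printed along the gene's own strand, and has searched motifs in capitals. Of the 10 members, 9 matched an entry of that table by symbol. C1qa is from chr5:154419884-154420183 (minus strand), C1qb from chr5:154407778-154408077 (minus strand), Cd68 from chr10:54882392-54882691 (minus strand) and Mrc1 from chr17:82157475-82157774 (plus strand).
C1qa: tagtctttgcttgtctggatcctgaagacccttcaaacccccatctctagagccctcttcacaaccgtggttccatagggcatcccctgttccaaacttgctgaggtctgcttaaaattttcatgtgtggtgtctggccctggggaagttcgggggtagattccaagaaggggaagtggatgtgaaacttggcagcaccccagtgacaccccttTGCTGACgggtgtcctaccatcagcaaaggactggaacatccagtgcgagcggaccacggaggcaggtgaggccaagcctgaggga
C1qb: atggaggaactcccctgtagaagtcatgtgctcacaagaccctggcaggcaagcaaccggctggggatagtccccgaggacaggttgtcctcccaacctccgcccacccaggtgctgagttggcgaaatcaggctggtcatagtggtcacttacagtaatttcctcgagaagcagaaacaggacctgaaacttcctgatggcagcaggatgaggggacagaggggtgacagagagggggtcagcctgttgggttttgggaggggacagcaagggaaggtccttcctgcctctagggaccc
Cd68: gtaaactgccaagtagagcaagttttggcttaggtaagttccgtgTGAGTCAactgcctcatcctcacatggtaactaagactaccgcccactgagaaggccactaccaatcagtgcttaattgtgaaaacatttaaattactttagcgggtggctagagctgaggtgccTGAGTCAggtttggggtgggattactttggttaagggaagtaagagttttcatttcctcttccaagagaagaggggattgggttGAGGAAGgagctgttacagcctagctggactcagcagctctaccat
Mrc1: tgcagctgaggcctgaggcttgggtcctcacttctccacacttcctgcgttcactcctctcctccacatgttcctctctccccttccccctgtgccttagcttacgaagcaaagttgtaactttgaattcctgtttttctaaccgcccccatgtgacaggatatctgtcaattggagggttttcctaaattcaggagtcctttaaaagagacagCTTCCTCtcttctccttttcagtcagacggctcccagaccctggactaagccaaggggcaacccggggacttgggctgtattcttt

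In these windows 3 motifs were searched on both strands, chosen after the sequences had been seen: GAGGAAG, a form of the site bound by PU.1, the lineage factor of myeloid cells encoded by Spi1; TGCTGAC, a half-site of Maf proteins; and TGAGTCA, the site of AP-1. The letters of the 3 motifs do not overlap one another in the windows printed. GAGGAAG occurred in 4 of 9 member windows (Cd14, Cd68, Csf1r and Mrc1) and in 12.4% of all 33469 windows of the same length. The Maf half-site occurred in 1 of 9, at bases 215 to 221 of the C1qa window, and in 4.44% of all windows. AP-1 letters also occurred in 1 of 9, in Cd68 at bases 46 to 52 and 171 to 177, and in 4.63% of all windows. Members were searched in 1 window per gene. With 1 window for each of 11020 genes of the expression table, the shares were 13.3%, 3.84% and 3.64% for GAGGAAG, the Maf half-site and AP-1. In Mrc1 the match lies on the opposite strand, so that bases 215 to 221 read CTTCCTC. C1qb held none of these letters in its window. Of the members with GAGGAAG, Cd14 and Cd68 rose in maturation and Csf1r and Mrc1 did not pass. A match is a description of the letters, not evidence of binding.

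Of the 10 markers, 7 were higher in maturation ameloblast samples than in either earlier stage. Ptprc, Cd68, Cd14, Lyz2, C1qa, C1qb and C1qc rose from secretory to maturation by between 1.71-fold (C1qb) and 4.59-fold (Lyz2). The same 7 genes were higher in maturation than in cervical loop, by between 1.54-fold (C1qb) and 4.08-fold (Cd14). Csf1r, Mrc1 and Cd163 did not pass in any pair. Between cervical loop and secretory samples no member passed: 0 of 10 had an FDR of at most 0.05 by the authors' test, and 0 of 10 had an unadjusted p under 0.05.

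Against all genes, the 7 of 10 called higher for maturation against secretory stand beside 21.8% of genes called higher in that pair, with 42.9% called in either direction. For maturation against cervical loop the 7 of 10 stand beside 24.1% called higher and 57.8% called in either direction. Genes higher in maturation than in both other stages made up 14.6% of the table. For secretory against cervical loop, where no member passed, 41.8% of genes were called, 16.5% higher and 25.2% lower in secretory. In the authors' test over all 3 stages at once, 7 of 10 members passed beside 67.2% of all genes. The median log2 ratio of the 10 members was 0.95 from secretory to maturation, 0.81 from cervical loop to maturation and -0.17 from cervical loop to secretory, beside the 0.00, -0.12 and -0.14 of all genes. Both comparisons with maturation use the same maturation samples, so they are not independent of each other. From low to high, the means ran secretory, cervical loop, maturation in 7 of 10 members (all but C1qa, Mrc1 and Cd163) and in 15.5% of all genes. The step from secretory to cervical loop in this order passed for no member. For Ptprc and Cd14 that step changed sign when ratios were divided by the median ratio of all genes, so the count depends on scaling.

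**Figure D1:**
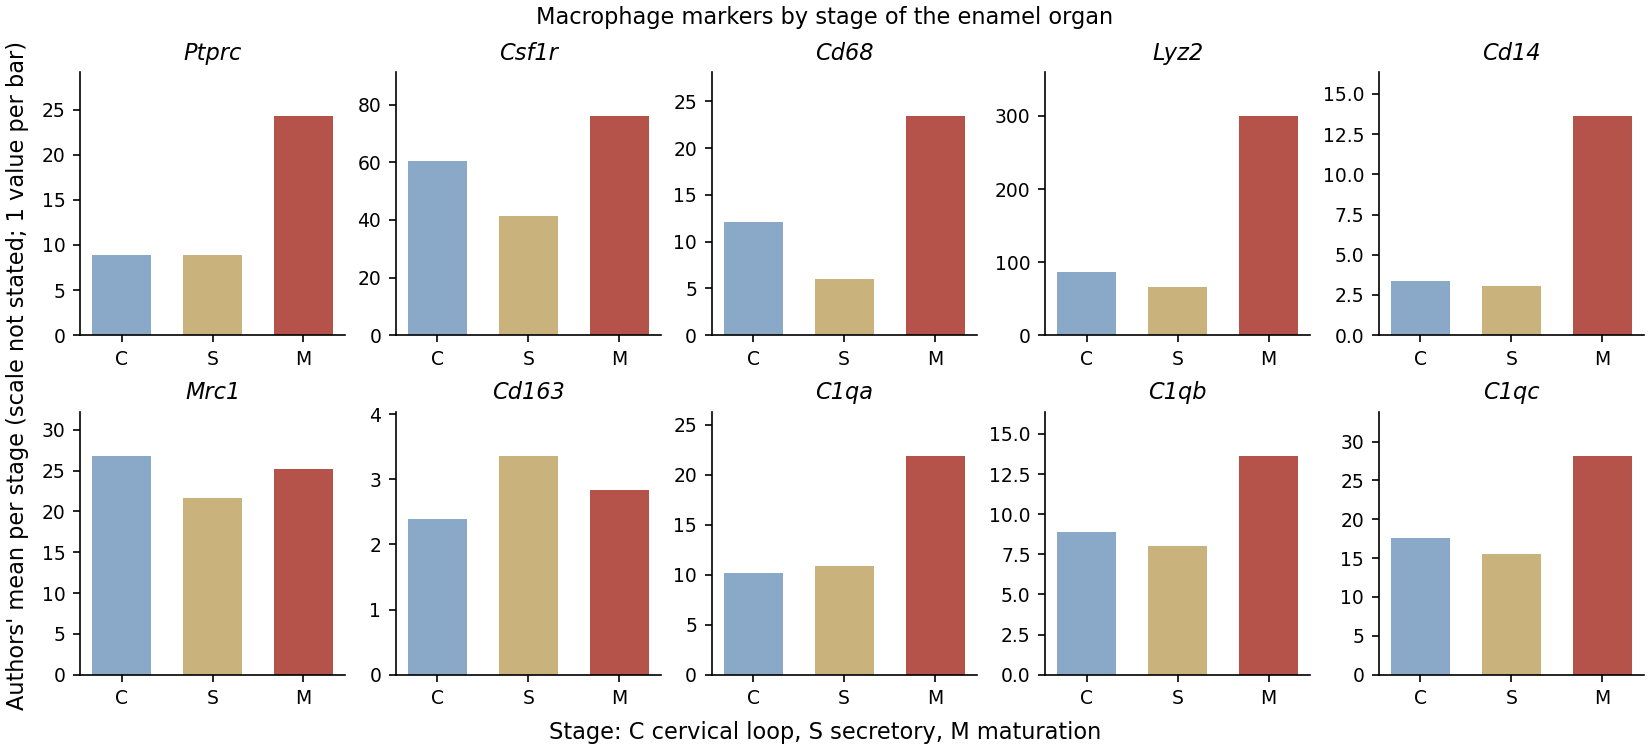
Authors' mean of each of the 10 markers (vertical axis, linear from 0, scale not stated, own axis for each gene) in cervical loop (C), secretory (S) and maturation (M) samples; each bar is 1 deposited mean, with no error bar available. Maturation is the tallest bar in 8 of 10 panels, the exceptions being Mrc1 (26.8, 21.6 and 25.3) and Cd163 (2.40, 3.37 and 2.84).

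Ptprc encodes CD45, the tyrosine phosphatase on the surface of all leukocytes. Its means were 8.91 in cervical loop, 8.90 in secretory and 24.3 in maturation. The first 2 stages were nearly equal, and maturation was 2.73-fold higher than either (FDR = 0.0015 against secretory and FDR = 0.000884 against cervical loop). Secretory against cervical loop gave FDR = 0.929.

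CD45 RNA is spliced into several forms in leukocytes, and 5 transcripts of Ptprc were in the authors' deposited isoform tables. The transcript with the highest mean, Ptprc-201, stood at 7.26, 6.07 and 16.5 and did not pass in any pair (over all transcripts, FDR = 0.128 from secretory to maturation and FDR = 0.325 from cervical loop to maturation). Ptprc-203 stood at 0.441, 0.749 and 4.17, which is 5.57-fold higher in maturation than in secretory (FDR = 0.00591) and 9.46-fold higher than in cervical loop (FDR = 0.00195). Ptprc-205 and Ptprc-202 passed in a single pair each. Ptprc-205 rose 5.18-fold from secretory to maturation (0.153 and 0.792, FDR = 0.0135), and Ptprc-202 4.48-fold higher in maturation than in cervical loop (0.359 and 1.61, FDR = 0.0282). Among all transcripts tested, 17.0% passed between secretory and maturation and 25.1% between cervical loop and maturation, and 16.0% passed between cervical loop and secretory, where 0 of the 5 did by the authors' test (1, Ptprc-202, at an unadjusted p under 0.05).

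In maturation Ptprc-201 made up 66.9% of the summed Ptprc transcript means and Ptprc-203 made up 16.9%. In secretory these shares were 66.8% and 8.24%, and in cervical loop 81.1% and 4.93%. The share of Ptprc-201 was thus nearly equal in secretory and maturation. Such shares add means on a scale that is not stated, so only their change between stages can be read. The authors' own test of a change in transcript make-up did not pass for Ptprc, with FDR = 0.536 between cervical loop and secretory, FDR = 0.567 between secretory and maturation and FDR = 0.773 between cervical loop and maturation. Shares of genes that passed that test were 1.19%, 1.8% and 2.79% in the same order. All 5 transcripts had their highest mean in maturation.

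**Figure D2:**
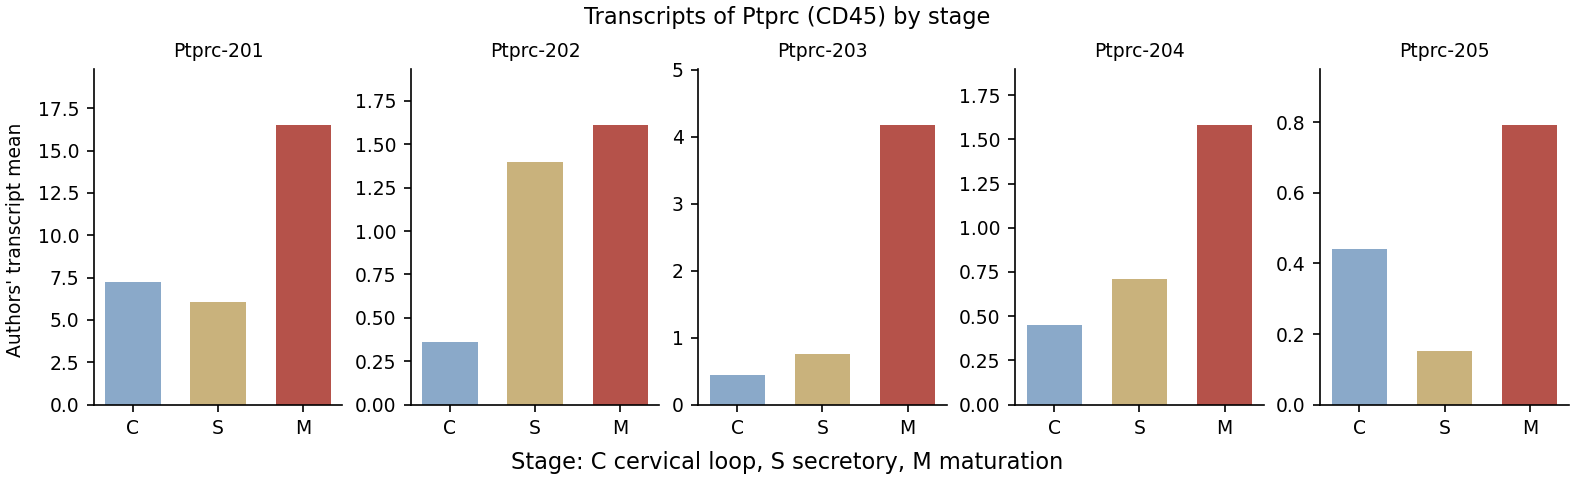
Authors' mean of 5 Ptprc transcripts (vertical axis, linear from 0, own axis per transcript) in cervical loop (C), secretory (S) and maturation (M) samples, 1 deposited mean per bar. Maturation is the tallest bar for each of the 5, from 0.792 for Ptprc-205 to 16.5 for Ptprc-201.

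Csf1r encodes the receptor for colony-stimulating factor 1 and interleukin 34, the survival signals of macrophages. It stood at 60.5 in cervical loop, 41.2 in secretory and 76.0 in maturation. Secretory was the lowest stage and maturation the highest, but no pair passed: maturation was 1.85-fold above secretory with FDR = 0.0954 (unadjusted p = 0.0492 in the authors' deposited table) and 1.26-fold above cervical loop with FDR = 0.287. Its 3 transcripts did not pass either. The one with the highest mean, Csf1r-201, stood at 29.9 in secretory and 61.8 in maturation (FDR = 0.33). It made up 72.2% of the summed Csf1r transcript means in secretory and 80.5% in maturation. The secretory mean of Csf1r-203 was 0.233 in the pair with maturation but -1.16 in the pair with cervical loop. Means and shares of transcripts thus depend on the pair fitted.

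Both ligands of that receptor rose from secretory to maturation. Csf1 stood at 21.2, 13.0 and 26.1 (2.01-fold, FDR = 0.017 for maturation against secretory), and Il34 at 1.08, 1.41 and 2.89 (2.05-fold, FDR = 0.0339). Il34 was also 2.69-fold higher in maturation than in cervical loop (FDR = 0.00672), where Csf1 did not pass (FDR = 0.229). Spi1, the gene of PU.1, had the same order of stages as Csf1r, at 4.83, 3.07 and 6.82, and did not pass in any pair (FDR = 0.0683 for maturation against secretory).

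Other factors of the myeloid lineage gave mixed patterns. Irf8, a transcription factor of monocytes and dendritic cells, was 1.99-fold and Cebpb 2.39-fold higher in maturation than in secretory (FDR = 0.0147 and FDR = 0.000364). Maf, whose protein can bind the half-site searched above, stood highest in the secretory stage. Its means were 35.3, 181 and 85.4, and it fell from secretory to maturation (FDR = 0.0178). In all, 15 of the 16 genes of this list of growth factors and transcription factors were in the table. Of these, 9 rose and 2 fell from secretory to maturation. Against cervical loop, 11 were higher and 0 lower in maturation, and 3 were higher and 1 lower in secretory. Shares of all genes called higher in the same 3 pairs were 21.8%, 24.1% and 16.5%.

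Cd68, a heavily glycosylated protein of late endosomes and lysosomes, had the deepest dip of the 10 in the secretory stage. Its means were 12.1, 6.02 and 23.4. Maturation was 3.89-fold above secretory (FDR = 0.0081) and 1.93-fold above cervical loop (FDR = 0.034). The 2.02-fold lower secretory mean against cervical loop did not pass (FDR = 0.178).

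Lyz2 encodes lysozyme, the enzyme that cleaves bacterial cell walls. It stood at 85.8, 65.3 and 299.9, so that maturation was far above both earlier stages. The maturation mean was 4.59-fold the secretory mean (FDR = 0.000467) and 3.5-fold the cervical loop mean (FDR = 0.000454). Secretory against cervical loop did not pass (FDR = 0.175). Added up, the means of the 10 members were 237, 184 and 529 in cervical loop, secretory and maturation, and without Lyz2 the sums of the other 9 were 151, 119 and 229, with the same order of stages. Such sums weight each gene by its mean on a scale that is not stated, so only their order over stages can be read, here and for the lists of other cell types.

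Cd14 encodes the co-receptor that hands bacterial endotoxin to the toll-like receptor TLR4. Its means were 3.34, 3.05 and 13.6, with the smallest p of the 10 members in both comparisons with maturation. Maturation was 4.47-fold above secretory (FDR = 0.000242) and 4.08-fold above cervical loop (FDR = 0.000136). The ratio of the Cd14 mean to the Lyz2 mean varied by only 1.2-fold over the stages. Because the scale of the means is not stated, only the change of such a ratio between stages can be read.

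Partners of Cd14 in endotoxin sensing were called in part. Tlr4 stood at 3.19, 2.68 and 4.42 and did not pass (FDR = 0.0729 for maturation against secretory). Lbp, the serum protein that loads endotoxin on to CD14, stood at 14.0, 7.16 and 35.8 (5.0-fold higher in maturation than in secretory, FDR = 0.00914). The adaptor gene Myd88 (1.83-fold, FDR = 0.00655) and the kinase gene Irak4 (1.78-fold, FDR = 0.00322) also rose. Of the 8 measured genes of the endotoxin receptor list, 3 rose and 0 fell from secretory to maturation. The same counts, 3 and 0, applied to maturation against cervical loop. Over all genes, 21.8% and 24.1% were called higher in these 2 pairs. Irak1 was the 1 gene of the list called between cervical loop and secretory, 1.42-fold higher in secretory (FDR = 0.0126).

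Mrc1 and Cd163, scavenger receptors of tissue-resident macrophages, did not pass in any pair, as was the case for Csf1r. Mrc1, the mannose receptor, stood at 26.8, 21.6 and 25.3, with folds of 1.24, 1.17 and 1.06 between stages. Its FDR was 0.322 between cervical loop and secretory, 0.416 between secretory and maturation and 0.793 between cervical loop and maturation. Cd163, the receptor for complexes of haemoglobin and haptoglobin, stood at 2.40, 3.37 and 2.84 and had its highest mean in the secretory stage (1.4-fold above cervical loop, FDR = 0.114). The other pairs of Cd163 gave FDR = 0.484 (secretory and maturation) and FDR = 0.228 (cervical loop and maturation). Its transcript Cd163-202 was 1.51-fold higher in secretory than in cervical loop (2.32 and 3.50, FDR = 0.12), and Cd163-201 did not pass in any pair.

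The ratio of Lyz2 to Mrc1 changed by 3.94-fold across stages (3.2, 3.02 and 11.9), that of Cd68 to Mrc1 by 3.33-fold (0.452, 0.278 and 0.927), and that of Ptprc to Mrc1 by 2.9-fold (0.332, 0.411 and 0.961). Each was highest in maturation, which restates the rise of Lyz2, Cd68 and Ptprc beside an Mrc1 that did not pass. The ratio of Cd163 to Mrc1 was 0.0894, 0.156 and 0.113, highest in secretory. Whether these genes differed in their response was not tested, since the per-library values such a test needs were not analysed here. Values of 4 further genes known from resident macrophages were of both kinds. Lyve1 (3.19, 2.69 and 4.43, FDR = 0.025) and Folr2 (2.99, 2.02 and 3.72, FDR = 0.0215) rose from secretory to maturation. Stab1 (41.7, 44.7 and 45.4, FDR = 0.926) and Siglec1 (1.54, 1.62 and 2.08, FDR = 0.297) did not pass.

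**Figure D3:**
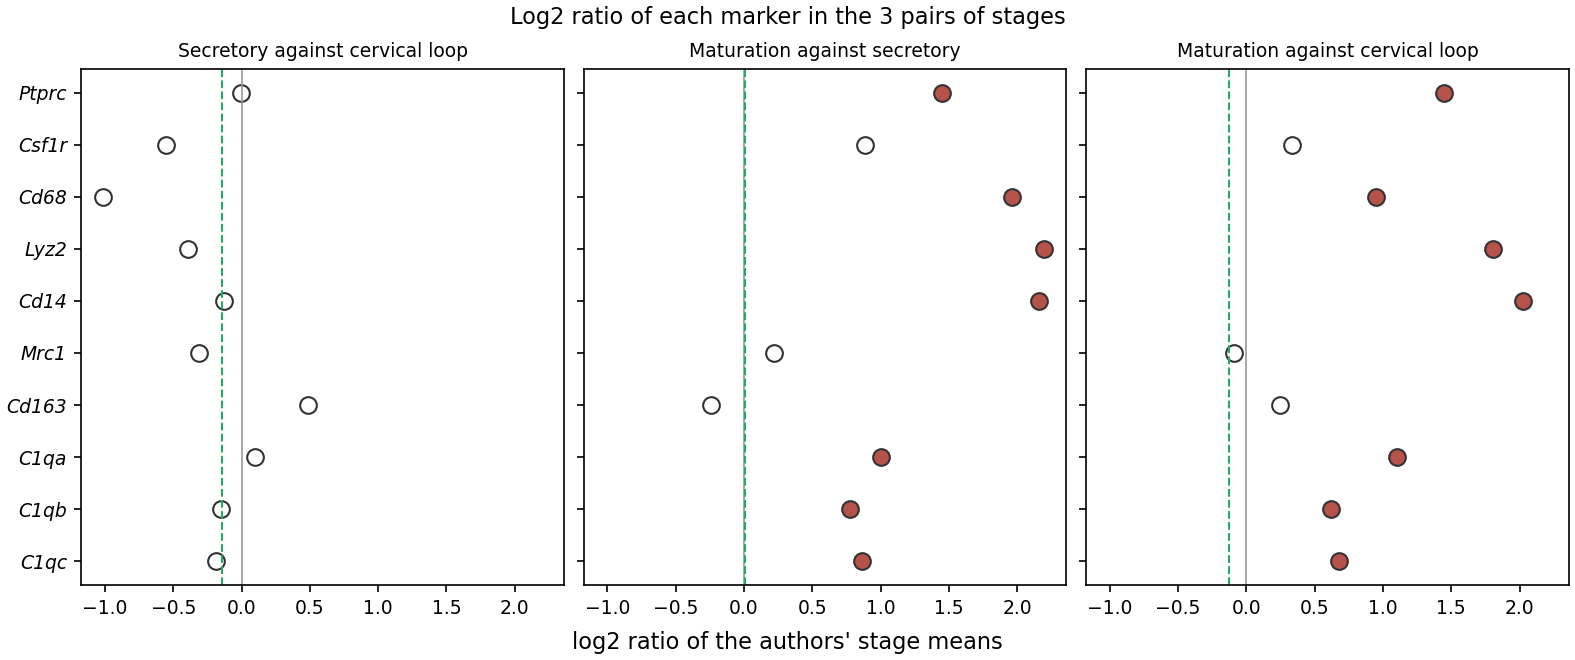
Log2 ratio of the authors' stage means (horizontal axis) for the 10 markers in the 3 pairs of stages; filled points had an FDR of at most 0.05, open points did not, the solid line is 0 and the dashed line is the median of all genes. Filled points appear in both comparisons with maturation for the same 7 genes, all to the right of 0, and 0 of 10 points are filled for secretory against cervical loop.

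C1qa, C1qb and C1qc encode the 3 chains that assemble into C1q, and the 3 genes lie side by side on rat chromosome 5 in RefSeq. C1qa stood at 10.2, 10.9 and 21.9, C1qb at 8.88, 7.99 and 13.7, and C1qc at 17.6, 15.5 and 28.2. All 3 had similar means in cervical loop and secretory and a higher mean in maturation. From secretory to maturation C1qa rose 2.01-fold (FDR = 0.0302), C1qb 1.71-fold (FDR = 0.0291) and C1qc 1.82-fold (FDR = 0.0416). Against cervical loop the maturation means were 2.15-fold (FDR = 0.012), 1.54-fold (FDR = 0.04) and 1.6-fold higher (FDR = 0.0424). These FDR values lie close to the threshold: at an FDR of at most 0.01 the 3 C1q genes no longer passed in either pair.

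The ratio of C1qb to C1qc was 0.503, 0.515 and 0.484, a 1.06-fold range. That of C1qa to C1qb ran from 1.15 in cervical loop to 1.36 in secretory and 1.6 in maturation, a 1.4-fold range. The spread of these ratios over libraries is unknown.

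The proteases that act with C1q did not pass. C1r stood at 78.2, 71.9 and 86.3 (FDR = 0.295 for maturation against secretory) and C1s at 109, 103 and 77.1 (FDR = 0.0923). Further down the pathway, C4b (0.840, 0.398 and 1.58, 3.98-fold, FDR = 0.00628) and C3 (1.03, 1.69 and 3.70, 2.19-fold, FDR = 0.0493) rose from secretory to maturation. So did Cd59, which blocks the membrane attack complex, at 27.6, 28.8 and 51.8 (1.8-fold, FDR = 0.00633). Cr1l, a complement regulator on the cell surface, fell over the same step (72.6 to 52.3, 1.39-fold, FDR = 0.0301) after being 2.1-fold higher in secretory than in cervical loop (FDR = 0.00203). Of the 14 measured complement genes outside C1q, 6 rose and 1 fell from secretory to maturation. Against cervical loop, 6 were higher and 0 lower in maturation, and 2 were higher and 0 lower in secretory. Among all genes, 21.8% were called higher and 21.1% lower in maturation than in secretory. Against cervical loop, 24.1% of all genes were called higher and 33.7% lower in maturation, and 16.5% higher and 25.2% lower in secretory.

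Other genes of phagocytes and leukocytes were also called higher in maturation, beside 21.8% of all genes against secretory and 24.1% against cervical loop. Of 31 measured further macrophage markers, 22 rose and 1 fell from secretory to maturation, with a median log2 ratio of 1.16. Against cervical loop 21 were higher and 0 lower in maturation, with a median of 0.94. Between cervical loop and secretory only Mertk and Sirpa passed, beside 41.8% of all genes. Of 15 measured pan-leukocyte genes, 10 rose and 0 fell from secretory to maturation (median 1.25), 9 were higher and 0 lower against cervical loop (median 0.89), and 0 passed between the first 2 stages by the authors' test, with 1 at an unadjusted p under 0.05.

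Genes of the phagocyte oxidase and of immunoglobulin receptors were among those that rose from secretory to maturation. Cybb, the catalytic subunit of the oxidase, stood at 16.1, 14.0 and 51.3 (3.65-fold, FDR = 0.000448), and its cytosolic partner Ncf1 at 3.41, 3.30 and 12.8 (3.86-fold, FDR = 0.000739). The Fc receptor gene Fcgr2b stood at 0.962, 1.20 and 4.68 (3.89-fold, FDR = 0.000712). Itgb2, the shared chain of leukocyte integrins, stood at 2.44, 3.39 and 12.6 (3.72-fold, FDR = 0.000695), and Cx3cr1, the fractalkine receptor, at 2.41, 1.89 and 5.03 (2.66-fold, FDR = 0.00313). Adgre1, which encodes the F4/80 antigen, stood at 9.0, 9.77 and 15.0 and did not pass (FDR = 0.209).

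Some genes listed as macrophage markers had another order of stages. Mertk, a receptor for dying cells, was already 3.15-fold higher in secretory than in cervical loop (23.9, 75.3 and 94.9, FDR = 0.000897) and did not pass from secretory to maturation (FDR = 0.102). Sirpa rose 2.78-fold from cervical loop to secretory (47.2 to 131, FDR = 0.00122) and fell 1.46-fold to 89.8 in maturation (FDR = 0.0295).

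Ligands that attract myeloid cells also moved. Cx3cl1, which encodes fractalkine, the ligand of Cx3cr1, stood at 2.03, 3.06 and 25.4 (8.3-fold higher in maturation than in secretory, FDR = 0.000519). Ccl2, the monocyte chemoattractant, stood at 0.531, 0.602 and 1.37 (2.28-fold, FDR = 0.0172), and Cxcl16 at 6.57, 4.66 and 23.9 (5.13-fold, FDR = 0.000775). Cxcl12 did not pass from secretory to maturation (FDR = 0.417) and was 2.08-fold lower in secretory than in cervical loop (FDR = 0.00534). Of 11 measured chemokine and receptor genes, 6 rose and 0 fell from secretory to maturation. Against cervical loop, 6 were higher and 1 lower in maturation, and 0 were higher and 1 lower in secretory. In the same 3 pairs 21.8%, 24.1% and 16.5% of all genes were called higher.

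Class II antigen presentation, a function of macrophages, dendritic cells and B cells, was called in full: 8 of 8 genes were higher in maturation in both comparisons. Of all genes, 21.8% were called higher against secretory and 24.1% against cervical loop. The median log2 ratio of the 8 was 1.85 against secretory and 2.37 against cervical loop. Cd74, the invariant chain, stood at 42.3, 54.3 and 217 (FDR = 0.000375 for maturation against secretory). Between cervical loop and secretory 0 of 8 passed by the authors' test, with 2 at an unadjusted p under 0.05, the smaller of them for RT1-Db1 (8.38 and 12.5, FDR = 0.0605). In that pair 41.8% of all genes were called, and 8379 of 16516 had an unadjusted p under 0.05 by the same test.

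**Figure D4:**
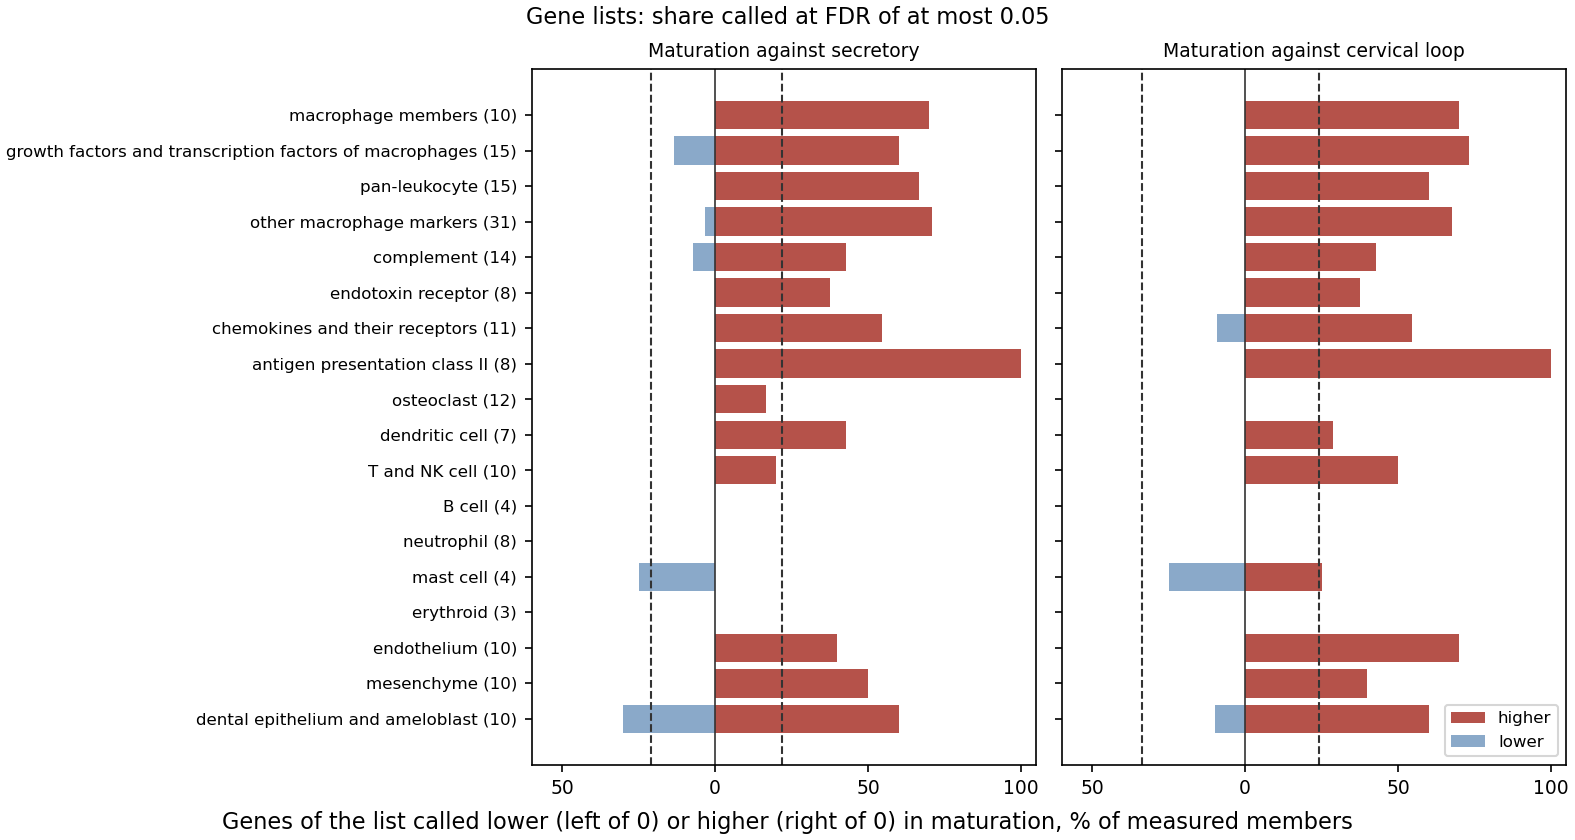
Share of measured genes of each list called higher (right of 0) or lower (left of 0) in maturation, in percent, for maturation against secretory and against cervical loop; the number of measured genes stands in brackets and dashed lines mark the shares over all genes. The 10 macrophage markers reach 7 of 10 in both panels, beside 21.8% and 24.1% of all genes called higher.

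Markers of other cell types were examined because several members are shared with them. Osteoclasts, the bone-resorbing relatives of macrophages, gave 2 genes higher of 12 for maturation against secretory (Tnfrsf11a and Nfatc1), beside 21.8% of all genes. All 12 had a higher mean in maturation than in secretory, with a median log2 ratio of 0.93, near the 0.95 of the members. By the authors' test 4 of the 12 had an unadjusted p under 0.05 in that pair, beside 8546 of 16516 among all genes. Osteoclast genes gave 0 of 12 for maturation against cervical loop by the authors' test, with 0 at an unadjusted p under 0.05 and a median log2 ratio of 0.11. Of all genes, 24.1% were called higher and 57.8% in either direction in that pair, and 10409 of 16516 had an unadjusted p under 0.05. The summed means of the osteoclast genes were 910, 490 and 880, and Ctsk, the collagen-cleaving protease of osteoclasts, stood at 520, 264 and 457 (FDR = 0.256 for maturation against secretory). Every member but C1qa and Cd163, with Cd68 and Csf1r among them, also had its lowest mean in the secretory stage. From cervical loop to maturation Csf1r had a log2 ratio of 0.33, not called, and Cd68 one of 0.95, called. The part of osteoclasts in the values of the members was not tested.

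Neutrophil genes did not pass in either comparison with maturation: 0 of 8 were called by the authors' test and 0 had an unadjusted p under 0.05. Beside the counts of this paragraph, 42.9% of all genes were called in either direction for maturation against secretory. The share was 57.8% for maturation against cervical loop and 41.8% for secretory against cervical loop. In the same order 8546, 10409 and 8379 of 16516 genes had an unadjusted p under 0.05 by the authors' test. Still, 7 of 8 had a higher mean in maturation than in cervical loop (median log2 ratio 1.02) and 6 of 8 than in secretory (0.41). The means of the 8 added up to 5.31, 8.1 and 8.9, with S100a8 at 0.750, 0.846 and 1.52. Mmp8 was the 1 gene called, higher in secretory than in cervical loop (FDR = 0.0355). The smallest p among them was that of Mpo from secretory to maturation (1.19 and 0.646, FDR = 0.169) and of Ngp from cervical loop to maturation (0.335 and 1.67, FDR = 0.142). Of 4 measured B cell genes, 0 passed in any pair, with 1 at an unadjusted p under 0.05 (Cd79b, secretory against cervical loop), sums of 1.39, 2.23 and 1.87, and Ms4a1 at 0.225, 0.447 and 0.431 (FDR = 0.0979 against cervical loop in maturation). Of 10 measured T and NK cell genes, 2 rose from secretory to maturation, near the 21.8% of all genes called higher. Against cervical loop 5 of the 10 were higher in maturation, beside 24.1% of all genes. The sum of the 10 was 4.14, 5.82 and 6.68, with Cd2 at 0.143, 0.238 and 0.607. Gzmb was at the floor of 0.1 or less in both earlier stages and at 0.455 in maturation. Lck and Cd8a were higher in secretory than in cervical loop, Lck at 2.03 and 2.95 (FDR = 0.0239). Of 7 measured dendritic cell genes, 3 rose from secretory to maturation (21.8% of all genes). Against cervical loop 2 of the 7 were higher in maturation (24.1% of all genes). Flt3 stood at 0.608, 0.661 and 1.70 (FDR = 0.00152 for maturation against secretory), and the 7 genes summed to 12.0, 11.7 and 25.9. Between cervical loop and secretory 0 of 7 passed by the authors' test, with 0 at an unadjusted p under 0.05, the smallest p being that of Xcr1 (0.207 and 0.133, FDR = 0.135). Of 4 measured mast cell genes, Kit alone passed from secretory to maturation, downward (FDR = 0.00511). Still, 3 of the 4 (Cpa3, Cma1 and Hdc) had a higher mean in maturation than in either earlier stage. The median log2 ratio of the 4 was 1.79 against cervical loop. Against secretory no median is given, since it would rest in part on Cma1, whose secretory mean is at the floor. Hdc, above the floor in all stages, had a log2 ratio of 1.57 against secretory. Cpa3, at the floor in both earlier stages, stood at 0.472 in maturation (FDR = 0.0355 against cervical loop). Cma1 (0.105, 0.0909, which is at the floor, and 0.356) and Hdc (0.176, 0.21 and 0.623) did not pass in any pair.

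Some vessel and connective tissue markers were higher in maturation, and no erythroid marker passed. Of 3 measured erythroid genes, 0 passed in any pair by the authors' test, with 1 at an unadjusted p under 0.05. Of all genes, 42.9% were called in either direction for maturation against secretory. That share was 57.8% for maturation against cervical loop and 41.8% for secretory against cervical loop. Their summed means were 1280, 1132 and 1804, and Hba-a2 stood at 901, 742 and 1286 (FDR = 0.0722 for maturation against secretory). Beside the counts that follow, 21.8% of all genes rose from secretory to maturation. Against cervical loop 24.1% of all genes were higher in maturation and 16.5% in secretory. Of 10 measured endothelial genes, 4 rose from secretory to maturation, 7 were higher in maturation than in cervical loop and 2 were higher in secretory than in cervical loop. Their summed means were 158, 208 and 296, and Kdr, a receptor for vascular endothelial growth factor, stood at 25.8, 32.2 and 62.2 (FDR = 0.00184) and Flt1, another, at 17.3, 28.5 and 52.4 (FDR = 0.0289 between cervical loop and secretory). Of 10 mesenchyme genes, 5 rose from secretory to maturation and 4 were higher in maturation than in cervical loop. Their summed means were 9844, 10402 and 14036, and Lum stood at 389, 288 and 678 (FDR = 0.00171). Pdgfra fell from 325 to 177 between cervical loop and secretory (FDR = 0.00119), and Col3a1 was 3.07-fold higher in maturation than in cervical loop (FDR = 0.00257). Among 10 genes of the dental epithelium, 6 rose and 3 fell from secretory to maturation, with Krt14 at 295, 542 and 1691 (FDR = 0.000394), and Epcam fell 2.68-fold from cervical loop to secretory (FDR = 0.00137). None of the endothelial, mesenchymal or erythroid markers measured was at the floor in any stage, and the part of these cells in the macrophage marker result was not tested.

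Genes whose pattern lay nearest to the median pattern of the 10 members were found by the Euclidean distance of log2 means, centred over the 3 stages, among 12462 genes with a mean of at least 1 in every stage. The median pattern was -0.20, -0.41 and 0.61 on the log2 scale in cervical loop, secretory and maturation. The 8 nearest genes outside the list were Plxdc2, Auh, Mfsd9, Cyb561, Ethe1, Mat2a, Lrp2 and Sdk2, at distances of 0.02 to 0.05. Plxdc2, the nearest, stood at 33.7, 29.6 and 60.2, and Lrp2, which encodes the endocytic receptor megalin, at 1.22, 1.03 and 2.19. Of the members, C1qc was the nearest to the median pattern (0.12) and Cd14 the farthest (0.96). With 3 stages a pattern holds little information: 54.3% of the other genes lay as near as the farthest member, and 18.6% as near as the median member.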

How the data were processed

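RNA sequencing of the 3 stages was analysed as 3 samples. Enamel organs of 5 rats were used per the labels, libraries were single-end with 75 bases a read, and RNA with an integrity number under 7, that of 1 cervical loop sample, was not sequenced. The submitters' processing notes list STAR (2.5.3a), Partek and rn6. The deposited gene table is titled as an ANOVA result and, per the file headers, has cell population as its factor. Any further model terms, and how genes were annotated, filtered and normalised, are not stated in the sources used here, and the reads per gene are unknown. Per the file headers, the authors deposited least-squares means per gene and stage, whose values are treated as a score on a scale that is not stated, with p-values, FDR, and a ratio and signed fold for each pair of stages. The deposited isoform tables hold the same columns per transcript.

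For each pair, Benjamini-Hochberg adjustment across all genes was computed in Python 3.11.15 with numpy and pandas, which gave the authors' own FDR, and direction was the sign of the difference of the means. A mean of 0.1 or less was the floor, against which no fold was given. The calling step was tested on simulated data. The members and the 17 other gene lists (206 genes, 180 of them measured) were chosen with earlier results of these data known. They cover growth and transcription factors, pan-leukocyte genes, further macrophage markers, complement, endotoxin receptor, chemokines, class II antigen presentation, osteoclasts, dendritic, T and NK, and B cells, neutrophils, mast cells, erythroid cells, endothelium, mesenchyme and dental epithelium. The rule for named genes took all members, the gene of smallest p in each list and pair, up to 4 further genes of known role per list, and the 8 nearest in pattern. Some genes that this rule takes are not reported here. Genes named beyond that number, mostly further macrophage markers, were chosen after their values were seen. Alternatives were the authors' FDR, a filter on low means, a stricter threshold, a minimum fold, other scalings, pseudocounts and summed transcripts. Promoter sequences are from RefSeq, build GRCr8, and no coordinates of rn6 were used. The separate libraries behind the means come from rats whose pairing across stages was not analysed here, so p-values rest on the authors' model.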

Additional observations from a re-analysis of the deposited data

How the results depend on the processing

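No paired analysis was possible because each stage is 1 deposited mean, and no replicate could be left out for the same reason. The count of members higher in maturation was again 7 in both pairs with the authors' own FDR, with genes of a largest mean of at least 1, with direction taken from the stage lists and with either scaling. The authors' FDR equals the one computed here, and the stage lists and scalings kept the same p-values and could change only a direction. These settings are therefore not independent checks of the count. At an FDR of at most 0.01 it was 4 against secretory and 3 against cervical loop, and with at least 2-fold beside an FDR of at most 0.05 it was 5 and 4. Over the other lists, an FDR of at most 0.01 left 11 of 20 higher and 3 of 5 lower in secretory than in cervical loop, 47 of 86 higher and 4 of 8 lower in maturation than in secretory, and 57 of 89 higher in maturation than in cervical loop. At least 2-fold left 3 of 5, 5 of 8 and 0 of 3 lower in the same order of pairs. The shares of all genes that pass these stricter settings are not given here. None of these counts, for the members or the other lists, can therefore be set against the whole table. Both scalings moved the median log2 ratio of the members: dividing by the median ratio of all genes gave -0.027 from cervical loop to secretory and 0.94 from cervical loop to maturation, and sums without the 10 largest genes gave -0.31 and 0.69. With no spread available, a shift of over 0.1 counted as moved. Of 129 log2 ratios of members recomputed, 124 kept their sign and 5 did not, none of them called: between cervical loop and secretory Ptprc (0.14 with the median ratio and 0.018 with summed transcripts), Cd14 (0.010 with the median ratio) and C1qa (-0.047 with the sums), and between cervical loop and maturation Mrc1 (0.036 with the median ratio). Depth per gene is unknown, so it cannot be said which changes were too small to detect.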
